A study of Mus musculus with 54 samples.

Results

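The mitochondrial ribosome reads the small set of messages that are transcribed from mitochondrial DNA, and all of its proteins are encoded in the nucleus. The genes described here are the mouse genes of that ribosome whose symbol starts with Mrpl or Mrps followed by a number, with pseudogenes left out. This rule found 77 genes among the 54232 genes counted, of which 50 belong to the large subunit, 26 to the small subunit and 1, Mrps36, encodes a protein now placed in the 2-oxoglutarate dehydrogenase complex. Mrpl33 matched no gene identifier and was not analysed here, and Mrpl53 had no count in any library. The remaining 76 members passed the filter on low counts in every comparison.

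Polyadenylated RNA was sequenced from 54 tissue samples of male BL6 mice, each injected intraperitoneally every day for 14 days with Cmpd60 at 22.5 mg/kg or with its vehicle of DMSO, PEG400 and saline. Cmpd60 is a benzamide-based compound that selectively inhibits the histone deacetylases HDAC1 and HDAC2. Mice of about 20 months gave kidney (6 Cmpd60, 5 vehicle), brain (6 and 6) and heart (5 and 6). A second cohort of about 6 to 7 months gave brain from APPSWE-1349 mice, which carry a transgene of the 695-amino-acid isoform of human APP with the Swedish mutation, and from littermates without it. Its main comparisons used 5 vehicle and 4 Cmpd60 APPSWE libraries and 5 of each treatment from littermates.

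Library totals ran from 23584609 to 57430113 counts. Levels are given as CPM, counts scaled to a common library total. Some labels conflict. For kidney, the treatment field is opposite to the titles, and the titles were followed, which the headings of the study's own kidney table share. An APPSWE library, s139 in its title, is labelled vehicle but headed as treated in the study's table, so it was left out of the main comparisons and is shown apart in the plots. Tissue identity held: the summed level of 8 kidney genes was 7455 to 15967 CPM in kidney and at most 7.99 CPM elsewhere. Libraries that stand apart are kidney Cmpd60 library 55, with the lowest of those kidney sums against 12286 to 15967 CPM in the other 10 kidney libraries, and 5 cohort libraries (140, 141, s146, 152 and s155, where an s is that of the title) in which 15044 to 16577 genes were detected against 18122 to 24821 in the other 15. Where values of named members turn on these libraries, they are given with and without them or the library is named. The labels do not say which tissues came from the same mouse, and in whole tissue fewer cells of a type cannot be told apart from less RNA per cell.

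As background, the large subunit forms peptide bonds and releases the chain through an exit tunnel to the inner membrane, while the small subunit decodes the message. Many of the ribosome's proteins have bacterial counterparts, and others are particular to mitochondria. Sorted by their systematic names, 45 of the genes described here are of the first kind and 31 of the second. Mrps18a and Mrps18b are named as the second kind although they are related to bacterial S18. Heart, kidney tubules and neurons depend strongly on oxidative phosphorylation, whose complexes hold the products of this ribosome. Several of the transcription factors linked to mitochondrial biogenesis, among them NRF1, the ETS family factor GABP and YY1, bind near the start of genes of this kind.

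In the promoter table of RefSeq (build GRCm38.p6, 250 bases before to 50 after the gene's start), 68 of the 77 members had an entry. The ETS letters CCGGAAG stood in 25 of these 68 promoters (36.8%), against 9.93% of all 27025 promoters and 12.9% of those of coding genes. YY1's letters AANATGGC stood in 21 (30.9%, against 6.96% and 7.46%), and the NRF1 letters (GCGCA, any base, then GCGC) in 13 (19.1%, against 5.19% and 7.17%). Both strands were searched, and a match is a description of the letters and not of a bound site. The 2 promoters printed here belong to Mrps18b and Mrps9, members whose values are given below. Capitals mark the ETS letters in the first, 43 bases after the start, and the NRF1 letters in the second, 5 bases before it, each on the reverse strand. The printed promoter of Mrps18b spans chr17:35916391-35916690 on the minus strand, and that of Mrps9 spans chr1:42850983-42851282 on the plus strand.
Mrps18b: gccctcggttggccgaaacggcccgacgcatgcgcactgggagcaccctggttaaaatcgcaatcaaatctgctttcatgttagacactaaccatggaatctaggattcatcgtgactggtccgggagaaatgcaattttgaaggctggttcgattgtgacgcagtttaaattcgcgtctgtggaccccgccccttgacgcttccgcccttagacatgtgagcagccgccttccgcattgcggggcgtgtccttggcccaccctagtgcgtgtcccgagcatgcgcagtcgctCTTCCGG
Mrps9: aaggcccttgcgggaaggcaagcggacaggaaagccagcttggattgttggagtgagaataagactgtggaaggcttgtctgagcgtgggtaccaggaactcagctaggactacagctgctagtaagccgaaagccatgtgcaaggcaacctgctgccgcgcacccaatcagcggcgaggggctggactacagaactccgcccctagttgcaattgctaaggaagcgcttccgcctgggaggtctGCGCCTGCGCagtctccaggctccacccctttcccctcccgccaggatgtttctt

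In vehicle-treated aged mice, brain carried least of this RNA, while the gap between heart and kidney depended on the scaling. On a TMM scale shared by the 3 tissues, the members summed to 3733 ± 197 CPM in heart (SD, n = 6), 2620 ± 199 CPM in kidney (n = 5) and 1661 ± 102 CPM in brain (n = 6), and the 3 ranges did not overlap. Without TMM factors, the sums were 2959 ± 123 CPM in heart, 2756 ± 137 CPM in kidney and 1994 ± 110 CPM in brain. Heart (2849 to 3119 CPM) and kidney (2597 to 2924 CPM) then overlapped, and brain stayed below both. On the shared TMM scale, heart had the highest mean for 57 of 76 members, kidney for 18 and brain for 1. Brain had the lowest mean for 67. The shares of all genes with these orders are not given here, so nothing particular to this family is read from the counts. The members with the highest mean CPM were Mrpl12, which forms part of the stalk that recruits translation factors, and Mrpl42, a protein particular to mitochondria. Per kilobase of exon on the shared TMM scale, Mrpl42 stood at 281 CPM in heart, 83.3 in kidney and 33.0 in brain. Mrpl12 stood at 87.4, 78.1 and 23.6. Scaled within each tissue and not per kilobase, the vehicle mean of Mrpl12 was 106 CPM in heart and 127 CPM in kidney. Its order between these 2 tissues thus depended on the scaling. At the other end, the small subunit gene Mrps18c averaged 1.25 CPM over the 3 tissues and Mrpl52 of the large subunit 10.6 CPM.

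Within each tissue the summed level differed little between treatments. These sums were scaled within each tissue, so their levels differ from those on the shared scale. The sum was 2917 ± 286 CPM in Cmpd60 kidney and 2770 ± 210 CPM in vehicle kidney (SD, n = 6 and 5). In aged brain it was 1886 ± 96.0 CPM with Cmpd60 and 1977 ± 115 CPM with vehicle (n = 6 and 6), and in heart 2880 ± 138.6 CPM and 2967 ± 136 CPM (n = 5 and 6). All 3 pairs of groups overlapped. Such sums lean on the most abundant members, so the members were next compared one by one.

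**Figure D1:**
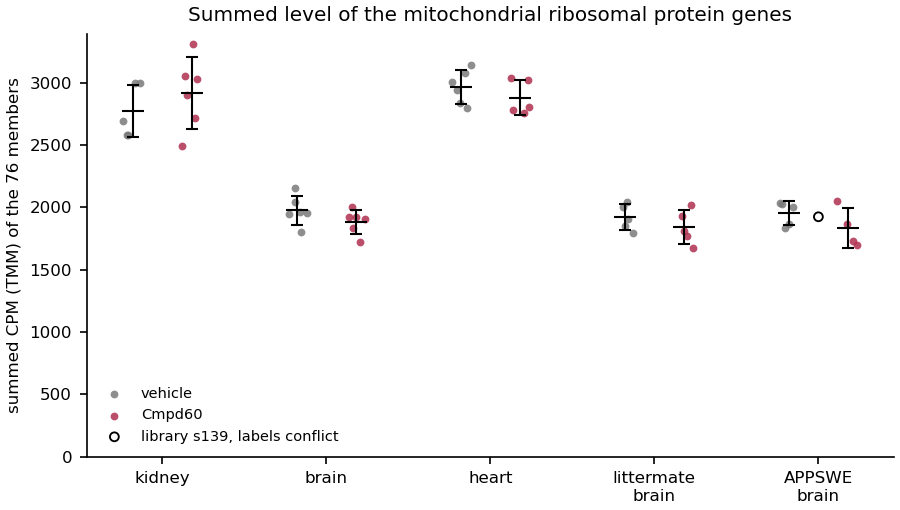
Summed level (CPM, scaled within each tissue or cohort and so not comparable between them) of the 76 members in each library, with the group mean and SD as bars; grey points are vehicle and red points Cmpd60. In every tissue the 2 treatments overlap, and library s139, whose labels conflict, is an open circle.

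Kidney was the tissue in which most members stood higher with Cmpd60, and no member passed the test there. Of 76 members, 58 were higher and 18 lower, their median log2 fold change being 0.08, while 50.0% of all 20698 genes tested were lower. By edgeR's quasi-likelihood test with Benjamini-Hochberg adjustment over all genes, 0 members had an adjusted p below 0.05 (0.3% of all genes did) and 5 had an unadjusted p below 0.05 (6.58% of members, against 11.3% of all genes). limma-voom and DESeq2 also called 0 members, with 4 and 6 at an unadjusted p below 0.05. The count of 5 moved with single libraries: it was 12, 11, 10 and 8 without libraries 52, 49, 54 and 53, and 3 without library 45 or 48. The majority rested in part on library 55: without it 48 members were higher and 28 lower, and the median was 0.04. Its kidney gene sum, 7455 CPM, was the lowest of the kidney libraries, and the part of this in the member values was not tested.

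Members of both subunits took part, with 38 of 49 large subunit genes and 19 of 26 small subunit genes higher in kidney. All 9 genes of the exit tunnel were higher, by 0.00 to 0.22 on the log2 scale, and none of them had a p below 0.05. Of the remaining named members, Mrpl13, a core protein of the large subunit, ran from 35.7 through a median of 42.6 to 47.4 CPM in the 6 Cmpd60 libraries, against 33.1, 34.2, 37.3, 37.6 and 37.8 CPM with vehicle. All but 1 of the Cmpd60 libraries lay above every vehicle library, and the log2 fold change was 0.24 (SE 0.09, adjusted p = 0.293). Mrpl57, a large subunit protein particular to mitochondria, went the other way, from 12.1 through 15.9 to 20.9 CPM with Cmpd60 against 20.6, 17.8, 21.5, 20.1 and 19.1 CPM with vehicle. Its log2 fold change was -0.30 (SE 0.12, adjusted p = 0.366), and the highest Cmpd60 value was that of library 55, without which the log2 fold change was -0.39. No member separated the groups in kidney without overlap, which 2.3% of all genes did.

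Aged brain showed the most one-sided picture of the 3 tissues, again without a member that passed the test. There 67 members were lower with Cmpd60 and 9 higher, their median log2 fold change being -0.07, while 48.2% of all 24438 genes were lower. None reached an adjusted p below 0.05 by edgeR or limma-voom (0.0205% of all genes did by edgeR), and DESeq2 called 1, Mrpl48. At an unadjusted p below 0.05 there were 8 members by edgeR (10.5%, against 13.8% of all genes), 6 of them lower, with 8 by limma-voom and 9 by DESeq2. The lower side held 44 of 49 large subunit and 22 of 26 small subunit genes, all 7 genes of the central protuberance and all 4 tested genes of the L7/L12 stalk. Leaving out any 1 of the 12 brain libraries kept between 58 and 71 members lower, and the count at an unadjusted p below 0.05 was 15 without vehicle library 29 and 13 without Cmpd60 library 36. Depth and cell markers also differed between these groups: the median total was 38855584 counts with Cmpd60 and 28188597 with vehicle, and the sum of 5 neuronal genes was 5276 to 6650 CPM against 4912 to 5679 CPM. The sum of 5 choroid plexus genes had a median of 501 CPM (215 to 914) with Cmpd60 and 691 CPM (530 to 750) with vehicle. Oligodendrocyte genes had a median sum of 5144.5 against 5423 CPM, astrocyte genes 1117 against 1121 CPM and microglial genes 153 against 152 CPM. With every library thinned to the total of the smallest, 66 members were lower. Whether the share of any of these cell types took part was not tested.

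Mrpl48, a protein of the central protuberance, which is the crown of the large subunit, had the smallest p in brain. It ran from 50.7 through a median of 53.9 to 57.4 CPM with Cmpd60 and from 53.8 through 63.98 to 69.5 CPM with vehicle, a log2 fold change of -0.23 (SE 0.06, adjusted p = 0.118). The overlap came from vehicle library 29, the lowest of its group, and without that library the adjusted p was 0.0170. Over the 19 other settings the adjusted p ran from 0.0170 to 0.248, and 2 of them passed the threshold. Exons of another gene on the same strand overlap Mrpl48, and likewise Mrps24 and Mrps34, so some of their counts may be uncertain.

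Among the other members low in Cmpd60 brain, Mrpl54 of the stalk ran from 7.21 through 8.40 to 10.4 CPM, against 8.96 through 10.1 to 12.7 CPM with vehicle. In all, 5 of its 6 Cmpd60 libraries lay below every vehicle library (log2 fold change -0.31, SE 0.10, adjusted p = 0.205). Mrps24, a core protein of the small subunit, ran from 13.3 through 16.7 to 19.5 CPM against 16.7 through 20.2 to 22.1 CPM (-0.24, SE 0.09, adjusted p = 0.243). The small subunit gene Mrps17 was the one member whose brain groups did not overlap, which 0.925% of all genes showed: all 6 Cmpd60 libraries, from 43.8 through 44.8 to 45.99 CPM, stood above all vehicle libraries, from 40.0 through 42.1 to 43.6 CPM. The difference was small, 0.09 on the log2 scale (SE 0.04, adjusted p = 0.361).

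Heart had the largest share of members at an unadjusted p below 0.05. There 50 members were lower with Cmpd60 and 26 higher, their median log2 fold change being -0.05, while 50.4% of all 19452 genes were lower. Of the members 16 had an unadjusted p below 0.05, 13 lower and 3 higher (21.1%, against 13.5% of all genes). By edgeR and limma-voom 0 members had an adjusted p below 0.05, a threshold that 1.18% of all genes passed by edgeR, and limma-voom gave 15 members at an unadjusted p below 0.05. DESeq2 called 3, with 17 at an unadjusted p below 0.05: Mrps9, Mrpl58 and Mrps28, of which the last was singled out with this contrast known, so that nothing is read from its call. The excess depended on single libraries, since without Cmpd60 library 69 only 8 members had an unadjusted p below 0.05 (10.4% of all genes), and without vehicle library 66 there were 10 (14.2%). By direction alone, the large subunit made up most of the lower side, with 36 of 49 genes lower against 13 of 26 in the small subunit. At an unadjusted p below 0.05, 7 large subunit genes were lower and 2 higher. In the small subunit 6 were lower and 1 higher at that p, so the lower side was not particular to the large subunit. All 7 genes of the central protuberance were lower in heart, by 0.04 to 0.23 on the log2 scale, 2 of them at an unadjusted p below 0.05. As most large subunit genes were lower, nothing particular to this structure is read from that. In APPSWE brain and in littermate brain 5 of the 7 were lower with Cmpd60 and 2 higher.

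The smallest p of any member in heart was that of Mrps9, a core protein of the small subunit. It measured 61.0, 52.3, 56.7, 61.2 and 59.8 CPM in the 5 Cmpd60 libraries, against 65.7 through a median of 68.4 to 75.3 CPM with vehicle. The groups did not overlap, and the log2 fold change was -0.27 (SE 0.06, adjusted p = 0.0578). The adjusted p over the 18 other settings ran from 0.00397 to 0.159. Besides Mrps9, Mrps28 was the other member whose heart groups did not overlap, a separation that 2.69% of all genes showed.

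Mrpl58, a peptidyl-tRNA hydrolase that is built into the large subunit, measured 25.3, 24.1, 24.5, 22.9 and 29.3 CPM with Cmpd60 against 27.9 through 31.3 to 32.2 CPM with vehicle. Library 72 was the one Cmpd60 library to reach the vehicle range, and the log2 fold change was -0.27 (SE 0.08, adjusted p = 0.0991). The small subunit gene Mrps26 was at 22.1 to 24.4 CPM with Cmpd60 and 23.6 to 34.9 CPM with vehicle (-0.27, SE 0.09, adjusted p = 0.205). Its groups overlapped at their edges. On the higher side, Mrpl45, an exit tunnel protein that anchors the ribosome to the inner membrane, measured 57.0, 53.3, 45.5, 47.3 and 56.9 CPM with Cmpd60 against 39.8 through 44.3 to 51.8 CPM with vehicle (0.20, SE 0.09, adjusted p = 0.339). Mrpl14, a core protein of the large subunit, measured 39.7, 32.7, 31.3, 26.5 and 37.1 CPM against 25.9 through 29.7 to 30.4 CPM (0.21, SE 0.09, adjusted p = 0.343). Both groups overlapped for these last 2 genes.

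**Figure D2:**
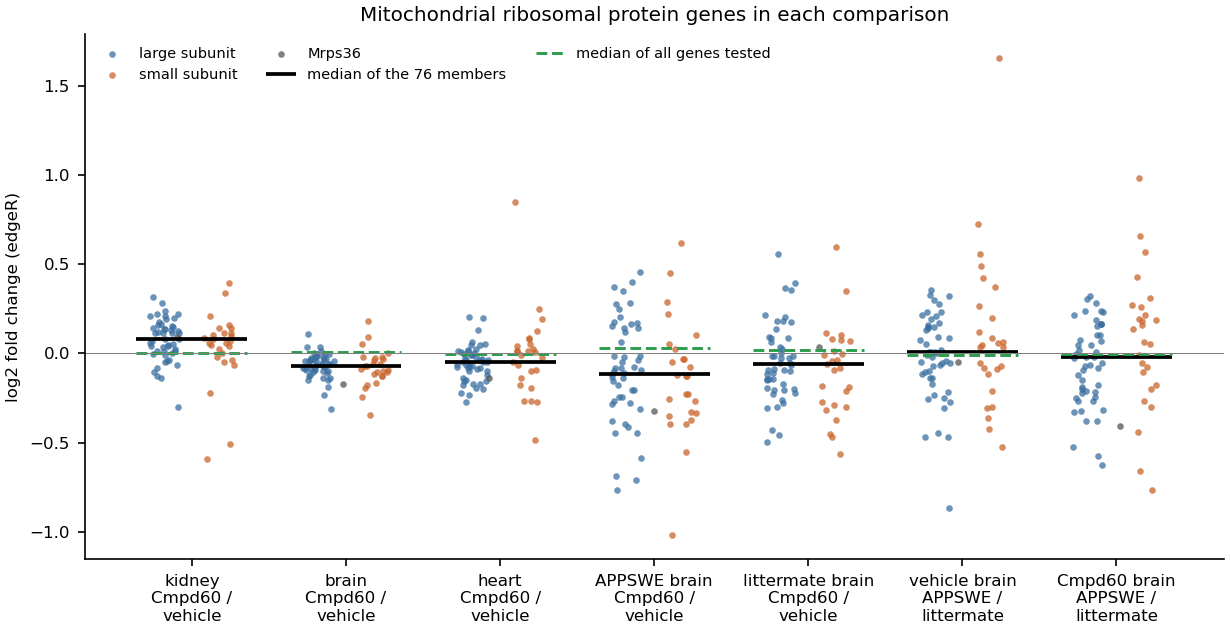
Log2 fold change (edgeR) of each of the 76 members in 7 comparisons, blue for the large subunit, orange for the small subunit and grey for Mrps36; black bars are the members' median and green dashes the median of all genes tested. The members sit mostly above 0 in kidney and mostly below 0 in aged brain, and scatter widely in the younger cohort.

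Mrps28 and Mrps18b were singled out with results of these data known, so their values in the aged tissues are a description and carry no test. Mrps28 encodes a small subunit protein related to bacterial S1 proteins. In kidney it ran from 7.86 through a median of 10.3 to 15.7 CPM with Cmpd60, against 13.4, 14.3, 15.9, 14.9 and 19.2 CPM with vehicle. Here 5 of the 6 Cmpd60 libraries lay below every vehicle library, and the exception was library 55. The log2 fold change was -0.51 (SE 0.16), or -0.64 without library 55.

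In aged brain Mrps28 ran from 4.60 through 6.05 to 6.57 CPM with Cmpd60 and from 6.47 through 7.37 to 9.08 CPM with vehicle (log2 fold change -0.34, SE 0.11), with 4 of 6 Cmpd60 libraries below all vehicle libraries. In heart it measured 18.9, 16.0, 17.1, 18.6 and 19.3 CPM with Cmpd60 and 19.4 through 21.6 to 23.7 CPM with vehicle (-0.27, SE 0.08). The gap between the heart groups was narrow, from 19.3 to 19.4 CPM. As a difference between tissues in the log2 fold change, kidney minus heart was -0.25 (SE 0.18) and brain minus heart -0.06 (SE 0.17).

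Mrps18b encodes one of 3 proteins related to bacterial S18. It sits in the small subunit, as does the product of Mrps18c, while that of Mrps18a sits in the large subunit. In kidney Mrps18b ran from 26.8 through a median of 35.0 to 39.6 CPM with Cmpd60, against 29.9, 27.3, 25.8, 26.1 and 25.0 CPM with vehicle (log2 fold change 0.34, SE 0.11). There 4 of 6 Cmpd60 libraries stood above every vehicle library. In aged brain it ran from 11.6 through 13.4 to 14.0 CPM against 9.97 through 11.7 to 12.9 CPM (0.18, SE 0.08). In heart it measured 16.7, 21.7, 22.1, 21.4 and 22.0 CPM with Cmpd60 against 15.3 through 17.4 to 19.8 CPM (0.25, SE 0.09), and only library 68 fell within the vehicle range.

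The other S18 relatives showed smaller or more scattered differences. Mrps18a in kidney ran from 34.8 through 44.7 to 67.2 CPM with Cmpd60 against 33.5, 35.4, 38.1, 34.7 and 45.98 CPM with vehicle, a log2 fold change of 0.32 (SE 0.14, adjusted p = 0.413). Its highest value was again library 55, without which the log2 fold change was 0.19. In brain its level was 30.3 CPM with Cmpd60 and 30.2 CPM with vehicle, and in heart 42.4 and 40.8 CPM, so that its higher means with Cmpd60 in brain and heart were within the spread of the libraries. Mrps18c was rare, at means of 1.12 and 1.69 CPM in kidney, 1.43 and 1.498 CPM in brain and 1.28 and 0.717 CPM in heart. The heart mean with Cmpd60 rested on library 68, at 3.75 CPM, since the other 4 libraries were at 0.556 to 0.870 CPM.

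Mrps36, the one gene of the family that is not ribosomal, gave log2 fold changes of 0.09 in kidney, -0.17 in brain and -0.14 in heart, none with a p below 0.05.

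Over the 3 aged tissues, 4 members were higher with Cmpd60 in all (Mrpl55, Mrps18a, Mrps18b and Mrps2; 5.26%, against 15.5% of the 17536 genes tested in all 3) and 11 were lower in all (14.5%, against 15.8%). The 11 were Mrpl27, Mrpl3, Mrpl34, Mrpl4, Mrpl41, Mrpl48, Mrpl54, Mrpl57, Mrpl9, Mrps26 and Mrps28. An unadjusted p below 0.05 in the same direction in all 3 tissues was found for 2 of 76 members (2.63%), Mrps28 and Mrps18b, and for 0.428% of all genes. Nothing is read from this pair, because it was known when the family was chosen.

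**Figure D3:**
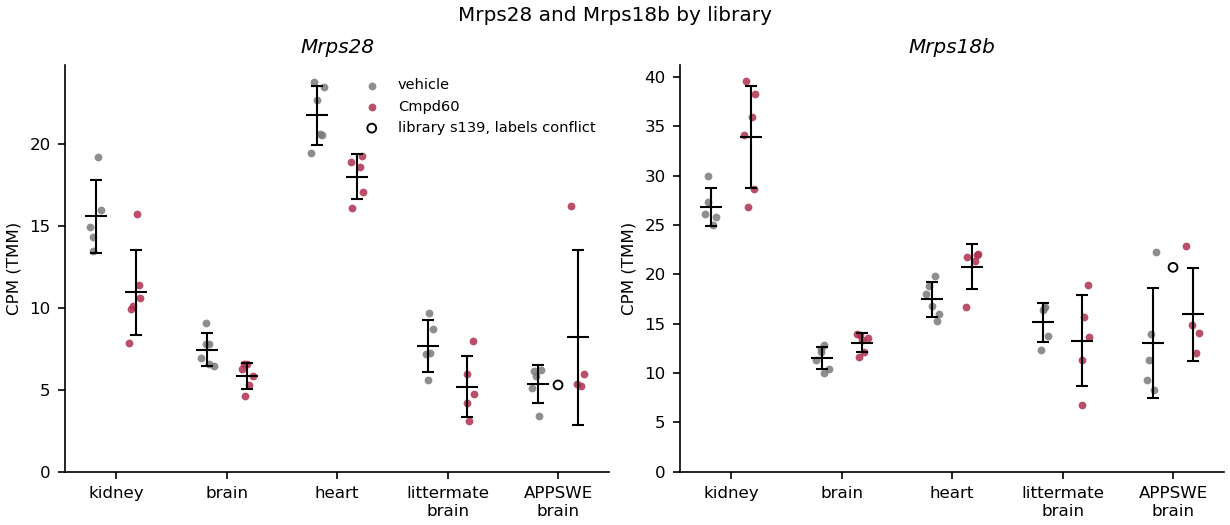
Level (CPM, scaled within each tissue or cohort) of Mrps28 and Mrps18b in each library, with the group mean and SD as bars; grey is vehicle, red Cmpd60 and the open circle library s139. In the heart panel of Mrps28 all 5 red points lie below all 6 grey points, and APPSWE Cmpd60 library 141 stands alone at 16.2 CPM.

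The comparisons between tissues asked whether the Cmpd60 effect itself differed, with all 34 aged libraries in one model. Libraries were fitted as separate mice, although the paper lists fewer aged mice than there are libraries. The standard errors and p-values between tissues therefore take no account of tissues that share a mouse. Relative to heart, the kidney effect was higher for 64 of 76 members and lower for 12, with a median difference of 0.12 on the log2 scale, while 49.2% of 27105 genes were lower. None of the members passed an adjusted p of 0.05 by edgeR (0.35% of all genes did) or by limma-voom, and DESeq2 called 1, Mrps9. At an unadjusted p below 0.05 there were 11 members (14.5%, against 11.7% of all genes; 9 by limma-voom and 12 by DESeq2), 9 of them with the higher effect in kidney. That count was 18 without kidney Cmpd60 library 52 and 7 without heart library 69 or 64 or kidney library 50 or 51. All 9 exit tunnel and all 7 central protuberance genes had the higher effect in kidney. Kidney against brain gave 62 higher and 14 lower with a median difference of 0.12, where 54.5% of all genes were lower. This comparison uses the same kidney libraries. Both splits include kidney library 55, on which the kidney majority rested in part, and are not given without it. There 0 members were past the adjusted threshold by edgeR, limma-voom or DESeq2 (0.0885% of all genes by edgeR), and at an unadjusted p below 0.05 there were 2 (10% of all genes; 2 by limma-voom and 3 by DESeq2), Mrpl13 and Mrpl40. Brain against heart split 34 to 42, with 0 members past the adjusted threshold by any of the 3 tools (0.0517% of all genes by edgeR) and 1 at an unadjusted p below 0.05 by each (9.08% of all genes by edgeR), Mrps9.

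Mrps9 had the smallest p for kidney minus heart, with a difference of 0.36 (SE 0.09, adjusted p = 0.0667). Its kidney levels were 40.0 through 43.7 to 46.4 CPM with Cmpd60 and 37.8, 41.3, 42.1, 41.9 and 39.2 CPM with vehicle, so the 2 kidney groups overlapped while the heart groups did not. The call depended on the tool and on single libraries: the adjusted p was 0.00195 by DESeq2, 0.0478 with a stricter count filter, 0.0363 without kidney Cmpd60 library 52 and 0.0464 without library 54. Mrpl40, of the central protuberance, differed by 0.42 (SE 0.15, adjusted p = 0.239), and Mrps18c by -1.45 (SE 0.56, adjusted p = 0.282), a value that heart library 68 feeds. Mrps9, Mrpl40 and Mrps18c were named for this contrast after their values were seen.

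**Figure D4:**
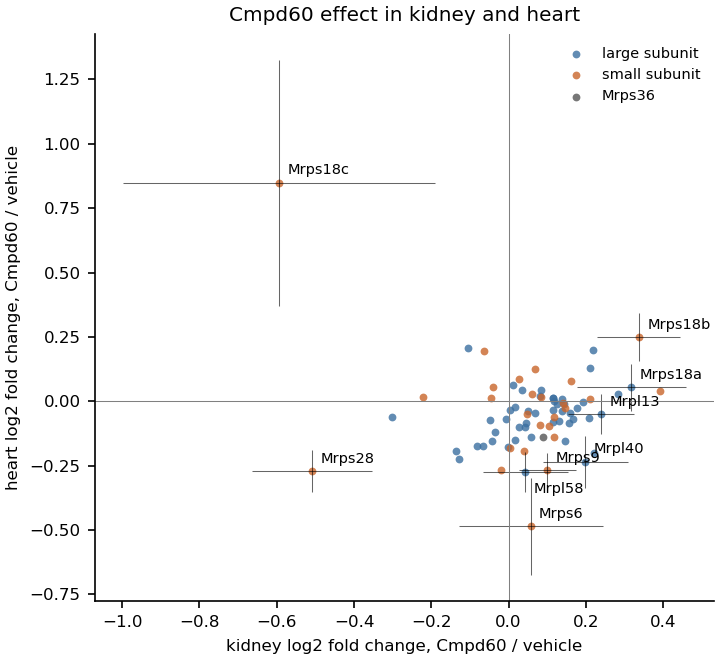
Log2 fold change with Cmpd60 in kidney (x axis) against heart (y axis) for the 76 members, with standard errors drawn for the 9 labelled genes; blue is the large subunit, orange the small subunit and grey Mrps36. Most points lie right of 0 and many lie below 0, with Mrps28 low in both tissues and Mrps18b high in both.

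Ribosomal proteins that carry other symbols were held as a separate list of 5 genes: Dap3, Ptcd3, Chchd1, Aurkaip1 and Gadd45gip1. Dap3, a GTP-binding protein of the small subunit, was the one of them that passed a test. In kidney it measured 85.1, 83.4, 76.9, 76.7, 67.3 and 81.6 CPM with Cmpd60 against 59.7, 64.3, 64.9, 62.7 and 62.5 CPM with vehicle (log2 fold change 0.32, adjusted p = 0.105). The kidney groups of Dap3 did not overlap, which 2.3% of all genes showed. In heart Dap3 measured 74.6, 77.0, 74.6, 75.3 and 79.2 CPM with Cmpd60 against 76.1 to 94.7 CPM with vehicle (-0.18, adjusted p = 0.213). In aged brain the difference was -0.02. In the model that fitted libraries as separate mice, the kidney effect exceeded the heart effect by 0.49 (SE 0.09, edgeR adjusted p = 0.00847, where 0.35% of all genes were below 0.05). This held in all 22 fits that left out 1 kidney or heart library, which were added after seeing the data, and in all 5 other settings. All 5 genes of the list had the higher effect in kidney.

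**Figure D5:**
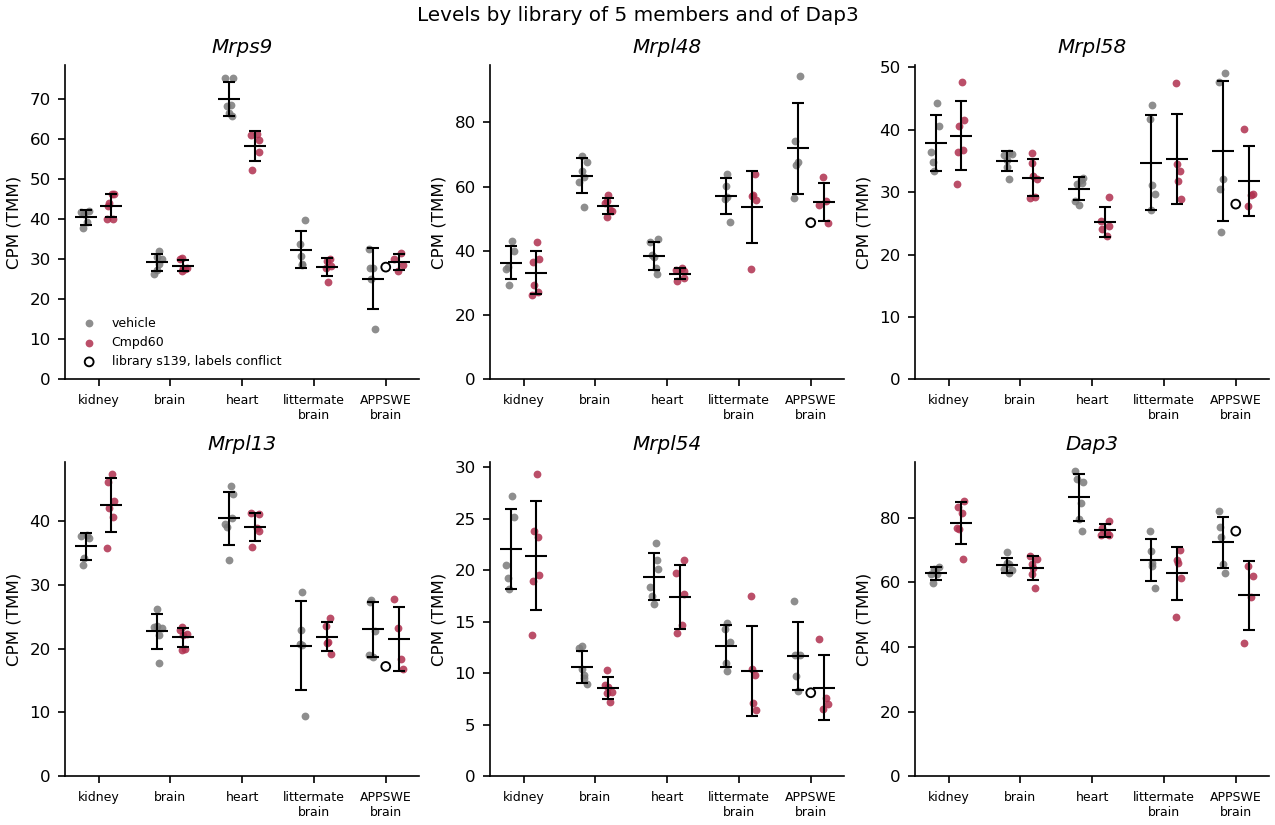
Level (CPM, scaled within each tissue or cohort) in each library of 5 members and of Dap3, with the group mean and SD as bars; grey is vehicle, red Cmpd60 and the open circle library s139. Mrps9 is lower with Cmpd60 in heart without overlap, Mrpl48 is low in aged brain, and Dap3 is high in kidney and not in heart.

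The rest of the translation machinery was read from lists of translation factors, assembly and rRNA maturation factors, and mitochondrial aminoacyl-tRNA synthetases. In heart 15 of 17 synthetases were lower, 5 of them at an unadjusted p below 0.05, where 13.5% of all genes were, and Cars2, which charges the cysteine tRNA, fell. Its levels were 25.7, 24.7, 27.3, 25.5 and 25.6 CPM with Cmpd60 and 29.5 to 34.2 CPM with vehicle (log2 fold change -0.29, SE 0.07, edgeR adjusted p = 0.0431, where 1.18% of all genes were below 0.05). The call was fragile: it stayed below 0.05 in 1 of 11 fits with a library left out, where the adjusted p ran from 0.0454 to 0.115. Of 27 assembly factors 18 were lower in heart, 6 at an unadjusted p below 0.05, led by Noa1, a GTPase of small subunit assembly (-0.38, adjusted p = 0.0706), and Lrpprc, which stabilises mitochondrial messages (-0.24, adjusted p = 0.0744). Translation factors were lower for 9 of 12 in heart. In kidney the same lists had 13 of 17 synthetases, 13 of 27 assembly factors and 8 of 12 translation factors lower, and in aged brain 9, 15 and 6, with no gene past the adjusted threshold in either tissue.

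The messages that this ribosome translates, the protein-coding genes of mitochondrial DNA, did not share one direction across the aged tissues. In aged brain 6 of 12 were higher and 6 lower, with mt-Nd4 of complex I at 0.28 (SE 0.07, adjusted p = 0.131), mt-Nd5 at 0.20 (adjusted p = 0.188) and mt-Co1 of complex IV at 0.22 (adjusted p = 0.195). At an unadjusted p below 0.05 in aged brain, 5 were higher and 1 lower, where 13.8% of all genes were. Kidney had 11 of 12 lower and heart 7 of 12, and none passed the adjusted threshold. In the younger APPSWE brain 11 of 12 were higher with Cmpd60, 5 of them at an unadjusted p below 0.05 (9.46% of all genes). In littermate brain 11 of 12 were also higher, 0 of them at that p (3.67% of all genes). None passed the adjusted threshold there. Libraries were made from polyadenylated RNA, which holds mitochondrial messages only as far as their tails were captured.

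Among 12 regulators of mitochondrial biogenesis, 8 were lower in aged brain, where Esrra, a nuclear receptor that acts on these genes, was at -0.23 (SE 0.08, adjusted p = 0.215) and Tfam, which packages mitochondrial DNA, at -0.14 (SE 0.05, adjusted p = 0.276). Kidney had 8 of 12 lower, with the growth regulator Myc at 0.66 (SE 0.29, adjusted p = 0.400), and heart 7 of 12. The drug's targets gave log2 fold changes of 0.20 for Hdac1 (adjusted p = 0.390) and 0.03 for Hdac2 in kidney, 0.02 and 0.04 in brain, and 0.05 and -0.08 in heart. Among members with a promoter entry, those with any of the 3 motifs had a median log2 fold change of 0.08 in kidney, -0.07 in brain and -0.03 in heart, and those without had 0.09, -0.04 and -0.07.

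The APPSWE cohort asked the same of a younger brain with and without the human APP transgene. Its spread was large, with a common biological coefficient of variation of 0.729 against 0.114 in aged brain, 0.210 in heart and 0.255 in kidney. In APPSWE mice 53 of 76 members were lower with Cmpd60 and 23 higher (median -0.11), and 45.8% of all 23194 genes were lower. By edgeR 0 members and 0% of all genes passed the adjusted threshold, and 5 members were at an unadjusted p below 0.05 (6.58%, against 9.46% of all genes), all lower. That count was 2 without library 140, 143, s144 or 148 and 3 without 141 or s146. limma-voom and DESeq2 called 0 members as well, with 8 and 5 at an unadjusted p below 0.05. Without the 5 libraries of few genes, a setting chosen after seeing the data, 58 were lower and 14 had an unadjusted p below 0.05, 13 of them lower, against 10.8% of all genes, and again 0 passed the adjusted threshold.

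Mrpl48 measured 54.3, 55.5, 62.9 and 48.5 CPM in the 4 Cmpd60 APPSWE libraries and 94.3, 66.6, 67.7, 74.3 and 56.4 CPM in the 5 vehicle libraries (log2 fold change -0.38, SE 0.16, adjusted p = 0.460). Library s139 stood at 48.8 CPM, within the Cmpd60 range and below every vehicle library. Mrpl34, a small core protein of the large subunit, measured 10.8, 7.84, 11.6 and 9.32 CPM with Cmpd60 and 26.6, 12.9, 12.4, 10.9 and 16.6 CPM with vehicle (-0.69, SE 0.29, adjusted p = 0.463). Its highest value came from library 140, one of those with few genes, and without all 5 such libraries the log2 fold change was -0.34. The groups did not overlap for 4 members, named after their values were seen: Mrpl38 and Mrps23 were higher with Cmpd60, and Mrpl10 and Mrps34 lower. Of all genes 2.31% separated in this way.

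In littermates 50 members were lower with Cmpd60 and 26 higher (median -0.06), and 47.1% of all genes were lower. By edgeR 0 members and 0% of all genes passed the adjusted threshold, and 1 member was at an unadjusted p below 0.05 (3.67% of all genes), with 2 each by limma-voom and DESeq2 and none without library s155. That member was Mrps25 of the small subunit, at 18.3, 26.0, 31.3, 27.5 and 29.01 CPM with Cmpd60 against 28.6, 34.8, 35.2, 34.0 and 47.8 CPM with vehicle (-0.45, SE 0.18, adjusted p = 0.999). The lowest and the highest of these values came from libraries 152 and s155, which hold few genes, and without the 5 libraries of few genes the log2 fold change was -0.22. Mrpl47, named after its values were seen, was lower without overlap, and 0.509% of all genes separated. Without the 5 libraries of few genes 61 members were lower and 7 had an unadjusted p below 0.05 (4.52% of all genes).

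The transgene itself, compared in vehicle-treated brain, left the members split 40 higher and 36 lower (median 0.01). No member passed the adjusted threshold by edgeR, limma-voom or DESeq2 (0.00862% of all genes did by edgeR), 3 were at an unadjusted p below 0.05 (8.67% of all genes; 6 by limma-voom and 4 by DESeq2), and no member separated the groups (0.638% of all genes). Mrpl48 was higher in APPSWE at the values above against 56.7, 56.0, 60.3, 63.9 and 49.0 CPM in littermates (0.33, SE 0.15, adjusted p = 0.525). Mrps14 of the small subunit measured 36.0, 20.8, 19.4, 24.5 and 26.7 CPM in APPSWE and 21.0, 18.8, 21.5, 14.0 and 11.3 CPM in littermates (0.56, SE 0.25, adjusted p = 0.532). Mrpl46, of the central protuberance, measured 10.9, 18.6, 18.6, 24.5 and 20.0 CPM against 21.5, 26.2, 23.4, 28.3 and 28.7 CPM (-0.47, SE 0.21, adjusted p = 0.527). Each of these pairs of groups overlapped. The highest APPSWE values of Mrpl48 and Mrps14 and the lowest of Mrpl46 came from library 140, and the lowest littermate values of Mrpl48 and Mrps14 from s155, all of few genes. The log2 fold change of Mrpl48 was 0.21 without library 140, and without the 5 libraries of few genes that of Mrps14 was 0.19 and that of Mrpl46 -0.28. The littermate vehicle and APPSWE vehicle libraries also serve the treatment comparisons, so these results share samples.

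With Cmpd60 in both genotypes, 35 members were higher and 41 lower in APPSWE, with 0 past the adjusted threshold (0% of all genes) and 0 at an unadjusted p below 0.05 by edgeR (1.34% of all genes; 0 by limma-voom and 1 by DESeq2). Mrpl14, chosen after its values were seen, was lower in APPSWE without overlap, at 3.24, 6.85, 6.91 and 5.91 CPM against 7.86, 7.81, 9.19, 9.98 and 9.48 CPM, where 0.936% of all genes separated. The interaction of genotype and Cmpd60 gave 32 higher and 44 lower, with 0 members past the adjusted threshold (0% of all genes) and 0 at an unadjusted p below 0.05 (5.09% of all genes; 2 by limma-voom and 1 by DESeq2).

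Mrps28 and Mrps18b could be tested in this cohort, which the choice of the pair did not use. Mrps28 in APPSWE brain measured 16.2, 5.20, 5.36 and 5.98 CPM with Cmpd60 and 6.20, 5.83, 3.41, 6.11 and 5.08 CPM with vehicle (log2 fold change 0.62, SE 0.44, edgeR adjusted p = 0.772). Without library 141, which holds the 16.2 CPM, the log2 fold change was 0.05. In littermates it measured 4.19, 4.72, 3.06, 7.94 and 5.98 CPM against 7.24, 7.15, 5.58, 9.65 and 8.68 CPM (-0.56, SE 0.42, adjusted p = 0.999). The interaction was 1.18 (SE 0.61, adjusted p = 0.994), with library 141 included, and no value without that library is given here.

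Mrps18b in APPSWE brain measured 22.8, 12.0, 14.8 and 14.1 CPM with Cmpd60 and 22.3, 14.0, 8.32, 11.4 and 9.27 CPM with vehicle (0.29, SE 0.31, adjusted p = 0.919). Both highest values came from libraries of few genes, and the log2 fold change was 0.06 without library 141 and 0.57 without library 140. In littermates it measured 6.81, 13.7, 15.7, 18.9 and 11.4 CPM against 16.7, 12.3, 16.4, 16.6 and 13.8 CPM (-0.19, SE 0.30, adjusted p = 0.999), or -0.02 without library 152. For both genes the standard errors in this cohort exceeded the log2 fold changes seen in aged brain, so an effect of that size was not detectable here. Dap3 in APPSWE brain measured 41.3, 55.5, 65.1 and 62.1 CPM with Cmpd60 and 62.9 to 82.1 CPM with vehicle (-0.37, SE 0.14, adjusted p = 0.444), with overlap.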

How the data were processed

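Gene counts per library were deposited as text. According to the study's methods and the labels, the authors sequenced polyadenylated RNA with strand-marking libraries, trimmed reads with Trimmomatic 0.32, aligned them with HISAT2 2.1.0 and counted reads per gene with HTSeq 0.11.0. The genome build is not given in the sources used here. The 5 summary lines per file, 15.36 to 22.15% of its total, were left out. The members and lists were chosen with earlier results of these data known.

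Genes were kept where 3 or more libraries of a comparison held over 2 counts, and were tested with edgeR 4.0.16 in R 4.3.3 (TMM scaling, quasi-likelihood test, Benjamini-Hochberg adjustment over all genes, threshold 0.05). limma 3.58.1 and DESeq2 1.42.0 were alternatives. Tables and figures used Python 3.11.15. Scaling was within a tissue or cohort, or over the 34 aged libraries for comparisons between tissues. Lengths and overlaps come from an older mouse annotation than the promoter table. P-values measure the spread between these samples.

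Named members were Mrps28 and Mrps18b throughout, the 2 highest and 2 lowest by mean level, the S18 relatives and Mrps36. Added were up to 8 per direction past the threshold in each aged tissue (filled to 4 by the smallest unadjusted p below 0.05). The cohort added up to 4 per direction (filled to 2). Up to 4 per pair of tissues were to be named at an adjusted p below 0.05, which no member reached by edgeR. The scripts were checked on made-up counts in which 200 genes were changed by 1.5 or 2 times. At these sizes 46 and 79 of them were recovered in kidney, 82 and 96 in aged brain and 58 and 82 in heart. In APPSWE brain 23 and 45 were recovered. False calls numbered 5, 8, 10 and 4. Smaller changes could therefore be missed.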

Additional observations from a re-analysis of the deposited data

Results flagged for a closer look

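Of 55 groups of members' values tested for a sample far from the others, 3 held one, and chance alone flags about 1 group in 20. Mrps18a stood at 67.2 CPM in kidney Cmpd60 library 55, where the nearest of the other libraries was at 46.3 CPM and the lowest at 34.8 CPM. Mrps18b stood at 16.7 CPM in heart Cmpd60 library 68, below the next library at 21.4 CPM and the highest at 22.1 CPM. Mrps28 stood at 16.2 CPM in APPSWE Cmpd60 library 141, against 5.98 CPM in the nearest library and 5.20 CPM in the lowest. Libraries 55 and 141 are among those that stand apart from the rest of their tissue or cohort.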

How the results depend on the processing

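No paired analysis was possible because each replicate number belongs to a single library, and tissues of the same mouse are not marked as such. No member passed the adjusted threshold under edgeR. With 1 library left out in turn, the count of members past it ranged from 0 to 1 in kidney (Mrps28 without library 55, a gene singled out with this contrast known), from 0 to 1 in aged brain (Mrpl48 without vehicle library 29) and from 0 to 1 for kidney minus heart, where leaving libraries out was decided after seeing the data (Mrps9 without kidney library 52 or 54). DESeq2 gave 1 in aged brain, 3 in heart and 1 for kidney minus heart, a minimum of 10 counts gave 1 in heart and 1 for kidney minus heart, and DESeq2 size factors in edgeR gave 1 for the latter.

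Members at an unadjusted p below 0.05, with 1 library left out, ranged from 3 to 12 in kidney, 6 to 15 in aged brain, 8 to 17 in heart and 7 to 18 for kidney minus heart. In the cohort they ranged from 2 to 6 for Cmpd60 in APPSWE, 0 to 2 in littermates, 1 to 5 for genotype under vehicle (5 without library s145, 1 without library s155), 0 to 1 for genotype under Cmpd60 (1 without library 143 or 147) and 0 to 4 for the interaction (4 without library 140). By limma-voom there were 8 for Cmpd60 in APPSWE, 2 in littermates, 6 for genotype under vehicle and 2 for the interaction, and by DESeq2 2 in littermates, 1 for genotype under Cmpd60 and 1 for the interaction. With no filter there were 3 in APPSWE, 2 in littermates, 5 for genotype under vehicle and 1 for the interaction. Library s139 as vehicle gave 3 in APPSWE, 2 in littermates and 1 for genotype under vehicle, and as Cmpd60 2 in littermates and 1 for genotype under Cmpd60. A covariate for how many genes a library detected gave 3 in littermates and 6 for genotype under vehicle, thinning gave 2 in littermates, and fitting only the 2 groups gave 1 for genotype under Cmpd60. Without the 5 libraries of few genes, chosen after seeing the data, there were 14 in APPSWE, 7 in littermates, 7 for genotype under vehicle, 1 for genotype under Cmpd60 and 3 for the interaction, and Mrps18b for genotype under Cmpd60 turned from 0.26 to -0.13. The cause was not tested.

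The other 536 alternative values of the comparisons and 620 of single genes kept their direction and side of the threshold, or stayed within 1.5 times a count. The low counts of Mrps18c and the spread of the cohort limit the precision.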
